A study of Mus musculus with 20 samples.

Results

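Gadd45a, Gadd45g, Btg2, Insm1, Sstr2, Penk and Rgs16, chosen by name as genes of a transient neurogenic state, are 7 of the 23260 genes measured in single cells of cultured mouse retina, and all 7 were detected. Retinal explants of the outbred CD1 mouse, whose genotype was wild type in all groups, were electroporated with a plasmid that carries GFP alone (control), GFP with MEIS1, GFP with MEIS2, or equal parts of the MEIS1 and MEIS2 plasmids (combination). MEIS1 and MEIS2 are related homeodomain transcription factors, and the series title asks what their overexpression does to temporal patterning and neurogenesis in late progenitors. The stated ages are postnatal day 2 (P2) and postnatal day 5 (P5), with 4 control libraries and 2 libraries of each MEIS group at each age. GFP-positive cells were isolated before sequencing, so every value is from cells that took up a plasmid, driven in all groups by the same general-purpose promoter. UMI counts were summed per library and per cell type as named by the authors, and a level is given as CPM, the gene's UMIs per 1000000 UMIs of that sum.

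Late retinal progenitors divide while they keep the gene programme of the undifferentiated retina, and those that leave the cell cycle pass through a short neurogenic state marked by proneural factors such as Neurog2 and by Notch ligands such as Dll1. In the mouse this state leads mainly to rods and bipolar cells at birth and in the days after it, while other progenitors become Müller glia. Gadd45a and Gadd45g are stress sensors that bind cell cycle and repair proteins, Btg2 is an antiproliferative target of p53 and an immediate early gene, and Insm1 is a zinc finger repressor of newly born neurons and endocrine cells. Penk encodes the precursor of the enkephalin opioid peptides, Sstr2 is a somatostatin receptor coupled to inhibitory G proteins, and Rgs16 switches such G proteins off by speeding their GTP hydrolysis.

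The label of a transient neurogenic state held for some of the genes and not for others. In control libraries at P2 Gadd45g and Rgs16 were highest in the neurogenic cells, with no overlap with any other type. Gadd45a and Sstr2 had their highest mean in amacrine cells, Insm1 in rods and Penk in progenitors. Btg2 was about as high in rods as in neurogenic cells. Types were ranked only where at least 2 control libraries of an age held 20 or more of their cells, which leaves out horizontal cells, Müller glia and starburst amacrine cells at both ages and bipolar cells at P2.

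The 20 libraries held 79009 cells and between 2376875 and 141540352 UMIs each. P2 MEIS2 replicate 2 stood apart, with a median of 992 UMIs per cell, 10.0% of its UMIs from the nuclear RNA Malat1 and a median of 0.387% mitochondrial UMIs. The 4 libraries numbered 1 at P5 had the highest mitochondrial percentages, from 6.93% to 10.6%. P5 control 3 and P5 combination 1 also stood apart from the other P5 libraries: the summed level of 8 cycling genes in their progenitors was 963 and 651 CPM, while the other P5 libraries had 42.1 to 150 CPM. Of 78261 barcode sequences, 744 occurred in more than 1 library, and no pair of libraries shared more than 30. The levels of the plasmid genes matched the titles: in progenitors Meis1 was at 2099 to 3750 CPM in MEIS1 libraries and at 164 to 354 CPM in controls, and Meis2 was at 848 to 1830 CPM in MEIS2 libraries and at 34.6 to 197 CPM in controls. Other labels conflict with the titles, which were followed here: the design text names NR2F1 and NR2F2 plasmids and 2 or 5 days of treatment, the treatment tag names a single factor for all single-plasmid libraries of an age, and the cell names of 10 of the 20 libraries do not begin with the library's title, those of 2 giving another group. Nothing in the labels says that libraries of a group came from separate explants or litters, so p-values measure the spread between these libraries only.

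The genes lie on separate stretches of mm10 in the GENCODE vM21 annotation, except that Btg2 and Rgs16 share chromosome 1. Their positions are Gadd45a chr6:67035096-67037457 (minus strand), Gadd45g chr13:51846678-51848468 (plus), Btg2 chr1:134075170-134079120 (minus), Insm1 chr2:146221921-146225020 (plus), Sstr2 chr11:113619342-113626028 (plus), Penk chr4:4133531-4138819 (minus) and Rgs16 chr1:153740349-153745468 (plus). Insm1 is a gene of 1 exon and the others have 2 to 5 exons. Gadd45a, Sstr2, Penk and Rgs16 each overlap 1 gene of the opposite strand, E230016M11Rik, Slc39a11, A830012C17Rik and Gm28513, and the strand setting of the counting is not given in the sources used here.

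Proneural factors bind the E-box, CANNTG, and factors of the CREB family, which act in immediate early responses, bind TGACGTCA. The promoters of Gadd45g, Btg2, Sstr2 and Rgs16 are shown because Gadd45g and Rgs16 were the pair highest in neurogenic cells and because Btg2 and Sstr2 hold the TGACGTCA letters. They are RefSeq sequences on GRCm38.p6, 5′ to 3′ on the gene's own strand, from 250 bases before to 50 bases after the transcript start, and capitals mark each CANNTG or TGACGTCA.
Gadd45g, chr13:51846425-51846724, plus strand: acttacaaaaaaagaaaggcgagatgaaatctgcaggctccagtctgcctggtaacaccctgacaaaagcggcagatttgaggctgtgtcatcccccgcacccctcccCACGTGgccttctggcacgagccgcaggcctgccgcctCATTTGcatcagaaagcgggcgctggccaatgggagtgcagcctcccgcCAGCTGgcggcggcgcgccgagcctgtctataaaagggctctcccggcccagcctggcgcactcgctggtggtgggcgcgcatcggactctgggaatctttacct
Btg2, chr1:134079106-134079405, minus strand: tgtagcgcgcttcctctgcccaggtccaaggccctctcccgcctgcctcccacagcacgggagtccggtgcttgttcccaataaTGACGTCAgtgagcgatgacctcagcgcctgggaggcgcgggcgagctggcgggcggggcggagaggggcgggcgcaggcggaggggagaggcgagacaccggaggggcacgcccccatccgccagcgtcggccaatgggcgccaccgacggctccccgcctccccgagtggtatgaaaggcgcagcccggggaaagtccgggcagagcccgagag
Sstr2, chr11:113619077-113619376, plus strand: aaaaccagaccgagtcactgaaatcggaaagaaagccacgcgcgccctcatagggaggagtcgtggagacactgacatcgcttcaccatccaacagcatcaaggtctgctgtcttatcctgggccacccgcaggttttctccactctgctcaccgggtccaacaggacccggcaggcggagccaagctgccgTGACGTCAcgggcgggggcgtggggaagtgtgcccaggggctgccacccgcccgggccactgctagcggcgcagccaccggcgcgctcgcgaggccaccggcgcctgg
Rgs16, chr1:153740103-153740402, plus strand: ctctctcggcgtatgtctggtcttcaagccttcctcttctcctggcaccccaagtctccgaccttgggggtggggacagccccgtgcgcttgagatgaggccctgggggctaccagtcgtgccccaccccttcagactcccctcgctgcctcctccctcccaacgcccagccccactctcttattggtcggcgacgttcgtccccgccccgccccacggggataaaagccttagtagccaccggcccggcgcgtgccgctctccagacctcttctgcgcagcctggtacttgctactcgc
Of the 7 genes, 5 had an entry in the promoter table, the others being Insm1 and Penk. Both motifs read the same on both strands and were searched once, and a CAGCTG is also a CANNTG. Gadd45g held 3 CANNTG, of which 1 was CAGCTG, and Gadd45a, not shown, held 1. At least 1 CANNTG occurred in 72.3% of the 32851 promoters of the table, with a median of 1 match, and CAGCTG in 16.3%. The share with 3 or more CANNTG is not given here, so nothing is read from these matches. TGACGTCA occurred once in Btg2 and once in Sstr2, and in 1.79% of all promoters of the table. Neither motif's letters occurred in the Rgs16 window.

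Gadd45g was higher in neurogenic cells than in progenitors in each of the 20 libraries. In the P2 controls 1 to 4 its level in neurogenic cells was 182, 214, 337 and 302 CPM, and in progenitors it was 41.7, 64.6, 89.7 and 39.3 CPM. The next type at P2 was the amacrine cell at 82.5 ± 36.3 CPM (SD, n = 4), with a highest library of 136 CPM, so the neurogenic cells stood clear of every other type. At P5 the neurogenic levels were 160, 375, 140 and 103 CPM, and those of amacrine cells reached 110 CPM, so the ranges overlapped. Rods and progenitors were lower at P5, at 18.1 ± 4.20 and 18.3 ± 12.5 CPM (SD, n = 4). Within a library the difference between neurogenic cells and progenitors was 2.15 ± 0.53 on the log2 scale at P2 and 3.53 ± 1.19 at P5 (SD, n = 4 control libraries). These values are a description with no test, since the authors defined the types from expression of the same cells. A level per type cannot tell fewer cells with the gene from less RNA of it per cell.

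Rgs16, the regulator of G proteins, was likewise highest in neurogenic cells at P2. Its neurogenic levels in the P2 controls were 109, 89.8, 107 and 121 CPM, and those in progenitors were 34.3, 28.8, 35.8 and 52.1 CPM. The groups did not overlap. At P5 the neurogenic cells had 107, 72.4, 79.2 and 85.4 CPM, and bipolar cells, next in order of the ranked types, had 57.6 ± 14.8 CPM (SD, n = 4) with a highest library of 77.1 CPM, so these neighbours overlapped. Müller glia reached 20 cells in 1 P5 control only, P5 control 3, where 46 of them had 98.4 CPM of Rgs16, above the 79.2 CPM of its neurogenic cells. Rods had 20.5 ± 5.14 CPM at P2 and 3.39 ± 1.17 CPM at P5. Rgs16 was also above progenitors in neurogenic cells in all 20 libraries.

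Gadd45a, the paralogue of Gadd45g, peaked elsewhere. Its amacrine levels in the P2 controls were 97.7, 76.7, 99.8 and 146 CPM, above the highest neurogenic library, 52.7 CPM. P2 control 4, the highest, also had the highest sum of 7 neurogenic markers in amacrine cells of the P2 controls, 505 CPM against 203 to 262 CPM. At P5 the amacrine libraries spread over 58.2, 77.2, 452 and 163 CPM and overlapped with the cones, the type next in order. P5 control 3, the highest, also had the highest sum of 7 neurogenic markers among control amacrine cells of P5, 436 CPM against 60.1 to 104 CPM, and the lowest sum of 5 amacrine markers, 576 CPM against 739 to 947 CPM. The part of these markers in the Gadd45a level was not tested at either age. Neurogenic cells were above progenitors in all 20 libraries, by 0.73 ± 0.15 on the log2 scale at P2 and 0.60 ± 0.25 at P5 (SD, n = 4 control libraries).

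Btg2 did not separate neurogenic cells from rods. The P2 control neurogenic levels were 597, 515, 344 and 835 CPM, and those of rods were 611, 503, 403 and 809 CPM. Progenitors at P2 had 164, 159, 107 and 335 CPM, below the neurogenic cells of the same library in all 4 controls and all 6 MEIS libraries. At P5 the order varied among libraries: neurogenic cells had 694, 202, 1264 and 520 CPM and progenitors 811, 182, 753 and 416 CPM, with neurogenic cells higher in 3 of 4 controls and 2 of 6 MEIS libraries. Müller glia, not ranked, had 1237 CPM of Btg2 in 46 cells of P5 control 3, near its neurogenic cells. They had 102 CPM in 40 cells of P2 control 1. In P5 MEIS1 2 and P5 combination 1 their levels were 156 and 369 CPM, from 21 and 20 cells.

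Insm1 was highest in rods. Rod levels in the P5 controls were 320, 213, 254 and 295 CPM, and no other type reached them, the cones coming next with 83 and 132 CPM in the 2 libraries that held at least 20 cones. At P2 rods had 218 ± 71.7 CPM and neurogenic cells 121 ± 41.1 CPM (SD, n = 4), with overlapping libraries. Progenitors were lowest of the ranked types at both ages, at 48.4 ± 16.4 CPM and 9.33 ± 6.74 CPM. Müller glia, not ranked, had less than progenitors of the same library where they reached 20 cells, 8.34 CPM in P2 control 1 and 11.96 CPM in P5 control 3.

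Sstr2 and Penk were rare transcripts. Sstr2 was at 6.74 ± 3.25 CPM in amacrine cells and 4.40 ± 1.63 CPM in neurogenic cells at P2 (SD, n = 4), and all neighbouring types overlapped in the order of its levels. Horizontal cells, not ranked, had 22.7, 52.7, 41.2 and 0 CPM of Sstr2 in the P2 controls, from 3, 2, 1 and 0 UMIs in 16, 10, 3 and 1 cells. Penk was highest in progenitors, with 5.05, 4.87, 6.82 and 3.53 CPM in the P2 controls, and the neurogenic cells, with 1.30, 0.795, 2.40 and 2.64 CPM, lay below all of them. Penk was lower in neurogenic cells than in progenitors of the same library in all 4 controls and all 6 MEIS libraries of P2. At P5 this order turned in controls 1 and 2 and in combination 2, and the progenitor mean of the controls, 1.30 CPM, rests on P5 control 3 at 3.30 CPM. The rods of the 4 P2 controls held 12 Penk UMIs in 13602 cells, or 0.177 ± 0.043 CPM, which serves as the background for Penk.

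**Figure D1:**
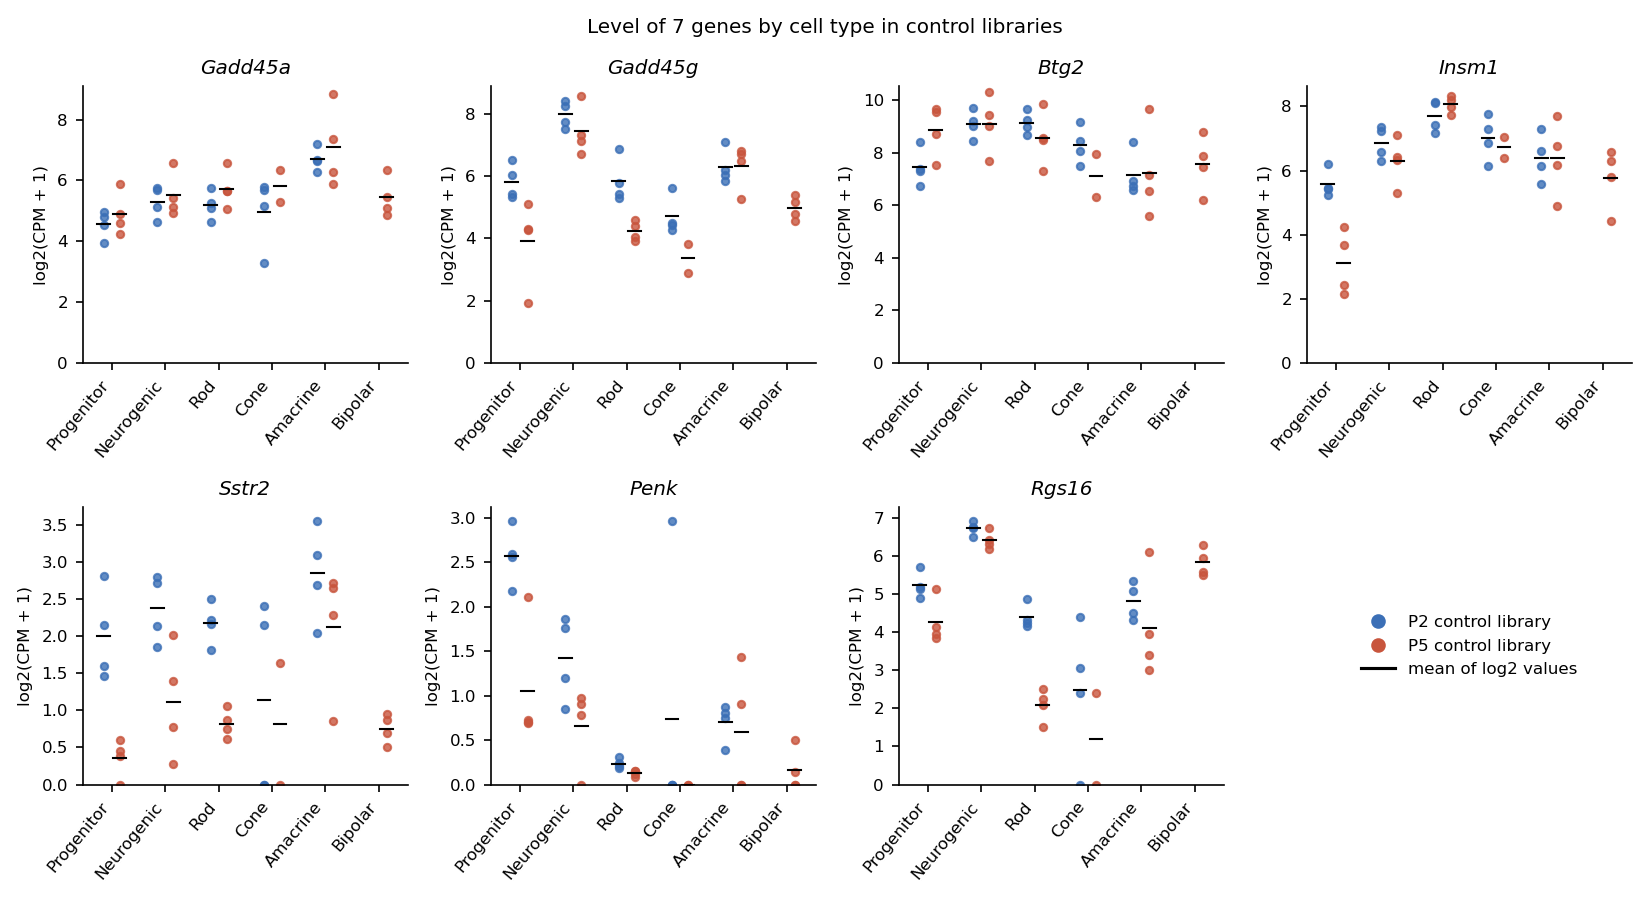
Level of each gene by cell type in control libraries, 1 point per library, as log2(CPM + 1), with P2 and P5 in separate colours and a bar at the mean of the log2 values. Gadd45g and Rgs16 are highest in neurogenic cells at P2, at 259 and 107 CPM on average, Insm1 in rods, Gadd45a in amacrine cells and Penk in progenitors.

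Shares of cells with a UMI were also higher in neurogenic cells than in progenitors for most genes. After each cell of at least 2000 UMIs was thinned to 2000 UMIs, Gadd45g had a UMI in 32.6 ± 6.69% of neurogenic cells and 9.47 ± 4.05% of progenitors in the P2 controls (SD, n = 4). The shares without thinning were 59.6% and 22.5%. Rgs16 was found in 17.6 ± 0.582% of thinned neurogenic cells and 7.78 ± 1.98% of progenitors (40.9% and 20.5% without thinning), and Insm1 in 19.4 ± 5.92% and 7.75 ± 2.97% (44.3% and 21.8%). Penk was found in 0.738 ± 0.268% of thinned P2 progenitors and 0.0375 ± 0.0450% of rods, the type with the lowest P2 level of those ranked (2.71% and 0.0672% without thinning). Shares in neurogenic cells were above those in progenitors in 12 of 14 combinations of gene and age in controls, at 2000 UMIs and again at 1000. Thinning left out 92 of 3516 neurogenic cells, 158 of 5608 progenitors and 2823 of 13602 rods of the P2 controls, and the median depths were 7089, 8318 and 3800 UMIs per cell.

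Within progenitors 5 of the genes were set beside the proneural and Notch ligand genes, cell by cell. The measure was the number of control cells with a UMI of both genes after thinning, divided by the number expected from the 2 shares in that library, averaged over libraries with at least 5 expected cells. Of 44 pairs with 3 or more such libraries, 43 had a mean ratio above 1: 12 of 12 for Btg2 (1.04 to 1.79), 9 of 9 for Gadd45g (1.26 to 2.17), 8 of 8 for Insm1 (1.22 to 2.95), 9 of 9 for Rgs16 (1.03 to 2.11) and 5 of 6 for Gadd45a (0.94 to 1.51). Pairs of unrelated genes were not counted as a baseline, so this count does not set the 5 genes apart from other genes. Insm1 occurred with Neurod1, a bHLH factor of photoreceptor and amacrine precursors, 2.95 times as often as the shares give (2.05 to 3.92, 4 of 4 libraries above 1), and with Otx2, a photoreceptor and bipolar regulator, 2.92 times as often (2.15 to 4.16, 4 of 4). Gadd45g occurred with Otx2 2.17 times as often (2.01 to 2.46, 4 of 4) and with the Notch ligand Dll1 1.79 times as often (1.63 to 2.00, 3 of 3). Rgs16 occurred with Neurog2 2.11 times as often (1.66 to 2.50, 3 of 3). These named pairs stood above 1 in each library that could be counted.

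The genes also met one another in progenitors. Insm1 occurred with Rgs16 1.89 times as often as the shares give (1.65 to 2.05, 3 of 3 libraries), Gadd45g with Rgs16 1.61 times (1.08 to 2.12, 3 of 3) and Btg2 with Rgs16 1.37 times (1.13 to 1.81, 6 of 6). Btg2 was found less often than expected with the S phase genes Rrm2, at 0.73 times (0.48 to 0.95, 0 of 5 libraries above 1), and Mcm5, at 0.78 times (0.70 to 0.91, 0 of 3). These pairs were chosen after their values were seen. Ratios of Btg2 with other cycling genes are not printed here, so the named pairs do not stand for cycling genes as a group. In neurogenic cells Gadd45g with Rgs16 was at 1.17 (0.73 to 1.44, 6 of 8 above 1) and Gadd45g with Neurog2 at 1.45 (1.10 to 1.79, 6 of 6). Sstr2 and Penk were too sparse for any pair. These ratios carry no test, and doublets, which Scrublet called in 6.41% of progenitors and 3.93% of neurogenic cells, were kept in them.

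**Figure D2:**
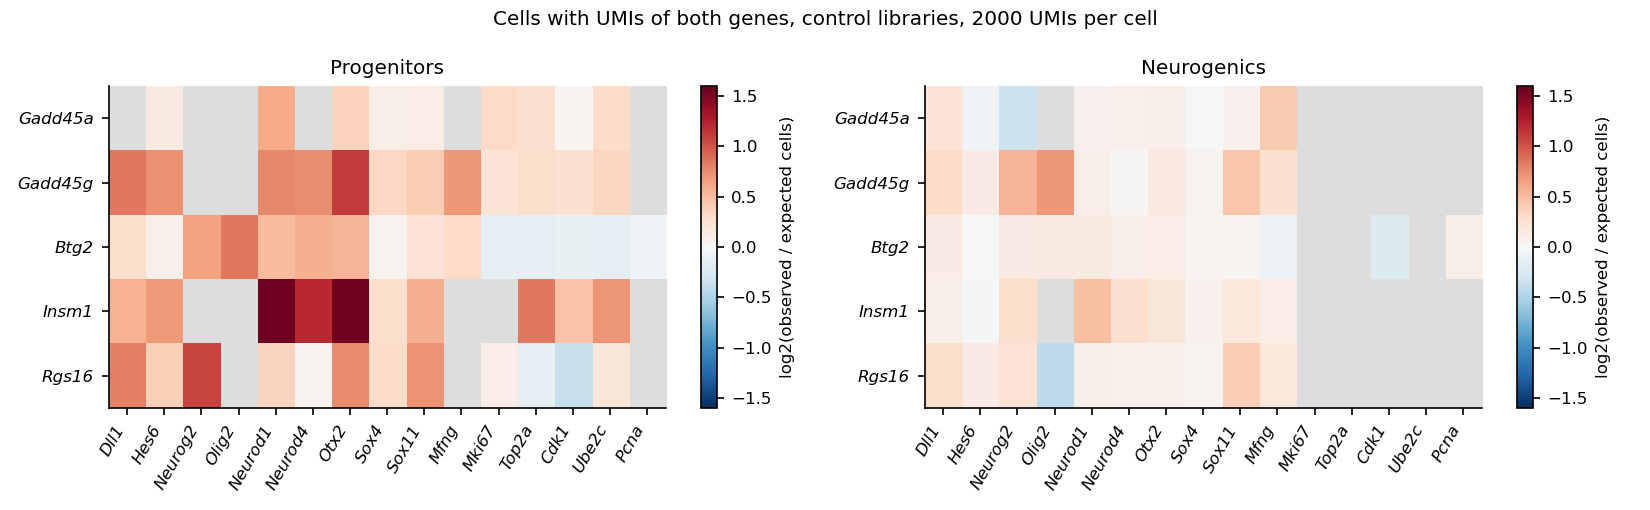
Ratio of observed to expected cells with UMIs of both genes after thinning to 2000 UMIs, as a colour on the log2 scale, for 5 of the genes (rows) with proneural, Notch ligand and cycling genes (columns) in progenitors (left) and neurogenic cells (right) of control libraries. Grey marks pairs with too few expected cells, and the darkest red in progenitors is Insm1 with Neurod1 and Otx2, at ratios of 2.95 and 2.92.

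Across 47 sums of control library and cell type, the genes most like each gene in log2(CPM + 1) were named by Pearson r among 9569 genes with a mean of at least 10 CPM. Sums of a library share its depth, so these are descriptions only. Insm1 was most like Neurod1 (r 0.92), Lurap1l (0.91) and Amer2 (0.90). Rgs16 was most like Cthrc1 (0.87), Glrx3 (0.85) and Ppp1r14b (0.83), and Gadd45g was most like 3110035E14Rik (0.78), Nkain1 (0.77) and Rgs13 (0.77). Penk was most like the mitotic genes Cdk1 (0.83), Top2a (0.82) and Birc5 (0.78). Btg2 was most like Jund (0.81), a subunit of the AP-1 factor, Dusp5 (0.79), a phosphatase of the ERK pathway, and Lbh (0.72). Gadd45a came nearest to Tbc1d30 (0.71), Lhfp (0.71) and Pou3f1 (0.70), and Slc24a5 (0.67) and Taf1d (0.65) were among the genes nearest to Sstr2. The mean of all 7 was most like the Notch ligand Dll3 (0.80), followed by Mfap4 (0.78), Nuak2 (0.77), Tprn (0.76) and Ppp2r3c (0.76). Among themselves the 7 genes were not alike, with r from -0.35 for Insm1 and Penk to 0.70 for Gadd45g and Rgs16.

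In control progenitors 5 of the 7 genes fell from P2 to P5 and 1 rose, in edgeR's quasi-likelihood test with Benjamini-Hochberg adjustment over all genes and calls at an adjusted p under 0.05. Of all 14849 genes tested in progenitors 17.5% were called. The median log2 change of the 7 was -1.67, and that of all genes tested was -0.04. Stated age, time in culture and any difference in preparation between the P2 and P5 libraries cannot be told apart.

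Insm1 in progenitors was at 72.7, 36.5, 42.9 and 41.5 CPM in the P2 controls and at 11.7, 3.46, 17.8 and 4.36 CPM in the P5 controls. All P5 libraries lay below all P2 libraries, and the share of all genes in progenitors that separate by age is not given here. The log2 change was -2.34 ± 0.54 (SE), with an edgeR adjusted p of 0.00727. Sstr2 was at 3.46, 2.03, 6.03 and 1.76 CPM at P2 and at 0, 0.370, 0.520 and 0.312 CPM at P5, again with no overlap. Its change of -3.28 ± 0.69 (SE, edgeR adjusted p 0.00404) rests on 181 UMIs at P2 and 10 at P5. The calls of Insm1 and Sstr2 held under all alternatives that tested them and without any 1 of the 8 control libraries.

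Gadd45g fell in progenitors from 41.7, 64.6, 89.7 and 39.3 CPM to 33.4, 18.8, 18.4 and 2.81 CPM, with no overlap between ages. How many of all genes show no overlap is not given here. The log2 change was -1.67 ± 0.53 (SE, edgeR adjusted p 0.0385). Penk fell from 5.05, 4.87, 6.82 and 3.53 CPM to 0.651, 0.617, 3.30 and 0.624 CPM, by 1.84 ± 0.59 on the log2 scale (SE, edgeR adjusted p 0.0393). Here P5 control 3 stood above the other P5 controls and just below the lowest P2 control. The same library had the highest cycling gene sum of the P5 controls, 963 CPM against 42.1 to 67.7 CPM. P5 combination 1, with the highest Penk level of the P5 libraries (5.57 CPM), was next in cycling genes, at 651 CPM, and the part of cycling cells in Penk was not tested.

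Rgs16 fell from 34.3, 28.8, 35.8 and 52.1 CPM to 34.3, 13.5, 16.7 and 14.7 CPM in progenitors. P5 control 1 lay within the range of P2, so the groups overlapped, and the change of -0.93 ± 0.31 (SE) had an edgeR adjusted p of 0.0497. Btg2 rose from 164, 159, 107 and 335 CPM to 811, 182, 753 and 416 CPM, a change of 1.49 ± 0.49 (SE, edgeR adjusted p 0.0448). P5 control 2 lay within the P2 range. Gadd45a, at 30.4, 14.2, 27 and 22.4 CPM and then 57.9, 17.8, 28.8 and 23.4 CPM, was not called (0.45 ± 0.36, SE, edgeR adjusted p 0.404). The sign of its change turned without P5 control 1.

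The calls of Gadd45g, Penk, Rgs16 and Btg2 depended on single libraries: they held without 3, 3, 2 and 2 of the 8 libraries in turn. Gadd45g and Rgs16 were lost without P2 control 2 or 3 or without P5 control 2, 3 or 4, and Rgs16 also without P2 control 4. Penk was lost without P2 control 2 or 3 or without P5 control 1, 2 or 4. Btg2 was lost without P2 control 1, 2 or 3 or without P5 control 1, 3 or 4. The highest edgeR adjusted p without 1 library was 0.125 for Gadd45g, 0.110 for Penk, 0.138 for Rgs16 and 0.152 for Btg2. Over the alternatives and left-out libraries the log2 changes kept their sign. They ran from -2.16 to -1.31 for Gadd45g, -2.95 to -1.59 for Penk, -1.40 to -0.73 for Rgs16 and 1.15 to 1.94 for Btg2. A two-sided exact permutation test over the 8 libraries gave p = 0.0286, the smallest that 4 against 4 allows, for each of Gadd45g, Insm1, Penk and Sstr2. The same exact test gave p = 0.0571 for Btg2 and p = 0.0857 for Rgs16. The share of all genes that reach the smallest exact p is not given here. Processing choices also ended calls. When only the 2 control groups were fitted, Gadd45g, Btg2 and Rgs16 were not called (edgeR adjusted p 0.0701, 0.0529 and 0.100). Their log2 changes in that fit were -1.64, 1.52 and -0.90. Btg2 was not called without TMM factors (edgeR adjusted p 0.0514), nor Rgs16 with groups taken from the cell names (edgeR adjusted p 0.0586).

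**Figure D3:**
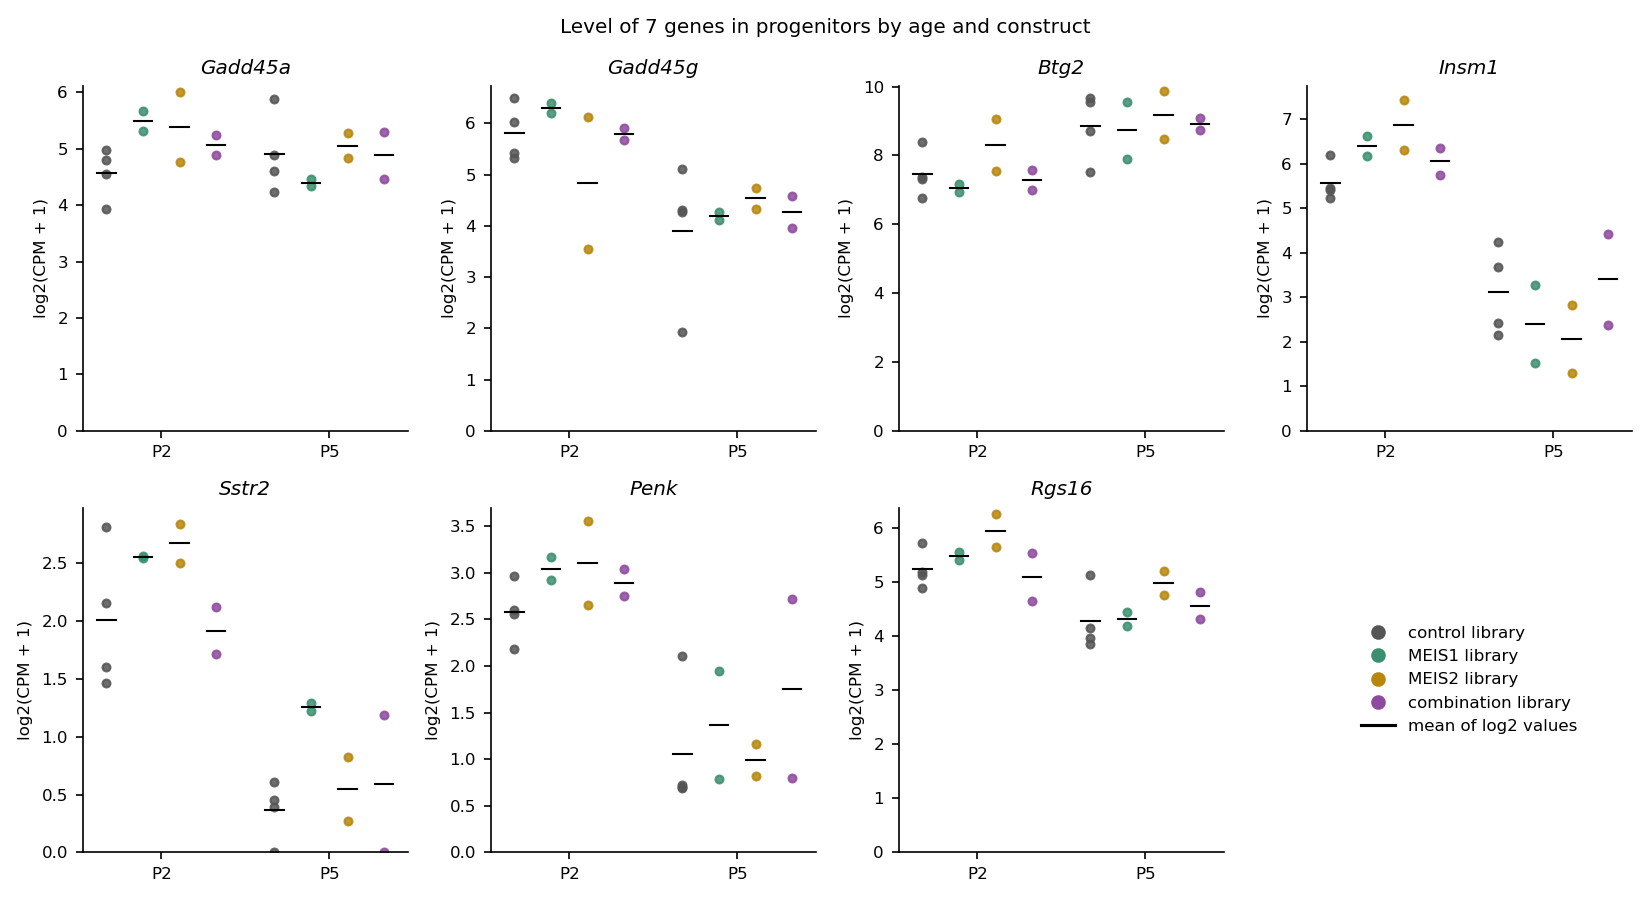
Level of the 7 genes in progenitors of every library, as log2(CPM + 1), 1 point per library, coloured by control, MEIS1, MEIS2 or combination and grouped by age, with a bar at the mean of the log2 values. Insm1, Gadd45g, Sstr2 and Penk lie lower in the P5 controls than in all P2 controls, while 3 of 4 P5 controls lie above all P2 controls for Btg2. The share of all genes that separate by age in this way is not given.

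Between the ages of the 12 MEIS libraries the same 6 genes were called in progenitors, with 29.9% of all genes called between their ages. This comparison was added after the control result was seen. Both comparisons came from 1 fit over all 8 groups and share its estimate of the spread, so they are not independent. Insm1 went from a lowest, median and highest library of 52.6, 79.6 and 172 CPM at P2 to 1.45, 5.18 and 20.4 CPM at P5. The ages did not overlap for Insm1, and the share of all genes without overlap is not given here. The log2 change of Insm1 was -3.82 ± 0.50 (SE, edgeR adjusted p 5.54e-05). Penk went from 5.28, 6.90 and 10.8 CPM to 0.723, 1.00 and 5.57 CPM and overlapped through P5 combination 1. The log2 changes of the other called genes were -2.32 ± 0.57 for Sstr2, -1.39 ± 0.44 for Gadd45g, -1.62 ± 0.50 for Penk, -0.79 ± 0.26 for Rgs16 and 1.61 ± 0.40 for Btg2 (SE). Across alternatives and left-out libraries the change of Sstr2 ran from -4.49 to -2.01 and that of Gadd45g from -1.67 to -0.65. The calls of Insm1, Sstr2 and Btg2 held without any 1 of the 12 libraries. Gadd45g was lost without MEIS2 replicate 1 of P2 or without MEIS1 2, MEIS2 1 or combination 2 of P5 (edgeR adjusted p up to 0.386). Penk was lost without MEIS1 1 or MEIS2 2 of P5 (up to 0.0613), and Rgs16 without any 1 of 7 libraries, namely MEIS1 1 and 2, MEIS2 1 and combination 1 of P2 and MEIS1 2, MEIS2 2 and combination 2 of P5 (up to 0.112). Without all 4 libraries numbered 1 at P5, Btg2 was called neither in controls (1.15, edgeR adjusted p 0.159) nor in MEIS libraries (0.93, edgeR adjusted p 0.150). Penk was then lost in controls (-1.67, edgeR adjusted p 0.0694) and Gadd45g in the MEIS libraries (edgeR adjusted p 0.0820).

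Other genes of these pathways were read in the same control progenitors beside the 17.5% of all genes called there, and the lists were chosen with earlier results of these data known. Of 14 proneural and Notch ligand genes 11 fell and 0 rose, with a median log2 change of -2.64: the change was -5.26 ± 0.79 for the proneural factor Atoh7 and -3.61 ± 0.58 for the Notch ligand Dll3 (SE). Others that fell were Neurod4 (-3.40), Dll4 (-2.88), Mfng (-2.86), Otx2 (-2.67), Neurod1 (-2.63), Dll1 (-2.23), Hes6 (-2.01) and Sox11 (-1.47). Among 10 growth arrest genes 3 were called: Gadd45b, the stress-induced relative of Gadd45a and Gadd45g, rose by 3.21 ± 0.61, and Btg1 and Cdkn2d fell, Btg1 by 1.18 and Cdkn2d by 1.47 on the log2 scale. In the other lists 2 of 6 INSM1 partner genes and 3 of 13 RGS and G alpha genes tested were called, and nothing is read about these small lists as groups. Of the partner genes Rcor2, a corepressor, fell by 1.74 and the histone demethylase Kdm1a by 0.50 on the log2 scale. Of the RGS and G alpha genes Gnao1 and Gnai2, which encode inhibitory G protein alpha subunits, rose by 0.91 and 0.79, and Rgs8 fell by 2.49 on the log2 scale. Of 13 somatostatin and opioid genes 3 were expressed enough to test, and Pdyn, the dynorphin precursor, rose by 3.18 and Oprm1, an opioid receptor, by 0.95.

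Markers of other cell states moved with these changes in progenitors. Of all genes tested there, 17.5% were called between ages in controls and 29.9% in MEIS libraries. The summed level of 6 Müller glia markers, none of them at 0, went from 1315 to 3473 CPM in the P2 controls to 10017 to 17797 CPM in the P5 controls, and 6 of 6 rose. The sum of 7 neurogenic markers went from 854 to 971 CPM to 110 to 487 CPM, with 5 of 7 called lower and none at 0. The sum of 8 cycling genes went from 349 to 2215 CPM to 42.1 to 963 CPM, with 0 of 8 called in controls (median log2 change -1.82) and 8 of 8 lower in MEIS libraries. These counts do not show that the change with age differed between MEIS and control libraries. The edgeR test of that difference called 0% of all genes in progenitors. Of 6 progenitor markers 1, Sfrp2, fell. The part of these shifts in the changes of the 7 genes was not tested.

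In neurogenic cells fewer of the 7 genes were called between ages. In controls 0 of 7 were called by edgeR, with 9.27% of all genes called, and DESeq2 called 1, Sstr2. An unadjusted edgeR p under 0.05 was reached by 3 of the 7 and by 3102 of all 13745 genes tested. Sstr2 was at 3.39, 5.96, 5.59 and 2.64 CPM at P2 and 0.217, 0.720, 1.64 and 3.04 CPM at P5, with P5 control 4 inside the P2 range (log2 change -1.74 ± 0.54, SE, edgeR adjusted p 0.0504). The log2 changes of the others were -1.42 ± 0.64 for Penk, -0.60 ± 0.34 for Insm1, -0.51 ± 0.43 for Gadd45g, -0.41 ± 0.18 for Rgs16, 0.22 ± 0.37 for Gadd45a and 0.13 ± 0.43 for Btg2 (SE). In the MEIS libraries, where 13.8% of all genes were called, Sstr2 fell from 3.13, 6.08 and 10.3 CPM (lowest, median and highest) to 0, 0.976 and 2.10 CPM, by 3.09 ± 0.50 on the log2 scale (SE, edgeR adjusted p 0.000362). Insm1 fell from 129, 233 and 250 CPM to 29.1, 84.9 and 145 CPM, by 1.24 ± 0.29 (SE, edgeR adjusted p 0.00669), with overlapping libraries. The call of Sstr2 was lost without P2 MEIS2 replicate 1 (edgeR adjusted p 0.0721). Of the 14 proneural and Notch ligand genes 8 fell in control neurogenic cells, with a median log2 change of -0.96.

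In rods 3 of the 6 genes that could be tested fell and 0 rose in controls, where 13.2% of all genes were called. Rgs16 went from 18.9, 18, 28.2 and 17.1 CPM to 3.28, 1.84, 4.65 and 3.77 CPM, a log2 change of -2.68 ± 0.30 (SE, edgeR adjusted p 9.00e-05). Gadd45g went from 38.1, 53.8, 116 and 41.6 CPM to 15.4, 23.1, 20.05 and 14.0 CPM (-1.88 ± 0.41, edgeR adjusted p 0.00630), and Sstr2 from 2.53, 4.70, 3.66 and 3.48 CPM to 0.820, 1.08, 0.677 and 0.538 CPM (-2.25 ± 0.43, edgeR adjusted p 0.00275). All P5 libraries of the 3 genes lay below all P2 libraries, and the share of all genes that separate in this way is not given here. The calls held without any 1 library, and that of Sstr2 was lost when cells were thinned to 2000 UMIs (edgeR adjusted p 0.0625). In the MEIS libraries, with 22.1% of all genes called, the same 3 genes fell, Rgs16 by 2.81 ± 0.25, Gadd45g by 1.19 ± 0.34 and Sstr2 by 2.28 ± 0.37 on the log2 scale (SE). There Rgs16 held without any 1 library, Sstr2 was lost without P2 MEIS2 replicate 1 (edgeR adjusted p 0.0858), and Gadd45g was lost without P2 MEIS1 2 or MEIS2 1 or without any of the 3 MEIS libraries numbered 1 at P5 (edgeR adjusted p up to 0.349). Insm1 stayed uncalled in rods, at 0.22 ± 0.24 in controls and -0.20 ± 0.20 in MEIS libraries (SE). Gadd45a, at 0.51 ± 0.31 and 0.39 ± 0.26, and Btg2, at -0.43 ± 0.40 and -0.66 ± 0.32, were not called either, and Penk was too low to test. In the same control rods 6 of 6 rod markers rose and 5 of 6 tested neurogenic markers fell, and their part was not tested.

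In amacrine cells 0 of 6 genes tested were called in controls, with 0.397% of all genes called, and 0 of 6 in MEIS libraries, with 2.98% called. In cones, where 2 P5 control libraries had enough cells, 0 of 4 were called, with 0.0605% of all genes called. By edgeR the number with an unadjusted p under 0.05 was 0 in control amacrine cells and in cones and 1, Gadd45g, in amacrine cells of MEIS libraries, and DESeq2 called none of them.

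Whether the change with age differed between types was tested on the difference of log2(CPM + 1) between 2 types of the same library, with 28 two-sided exact permutation tests over libraries, adjusted together by Benjamini-Hochberg. The test was added after values were seen. It compared progenitors with neurogenic cells and with rods, and a comparison of rods with neurogenic cells was computed but left out before adjustment. The log2 change of Insm1 with age was lower in progenitors than in rods, where it was not called, by 3.59 in the MEIS libraries (6 against 6 libraries, exact p 0.00216, the smallest possible, adjusted p 0.0121) and by 2.81 in controls (exact p 0.0286, adjusted p 0.0533). It was lower in progenitors than in neurogenic cells by 2.45 in MEIS libraries (adjusted p 0.0121 from the exact test) and by 1.87 in controls (adjusted p 0.0533 from the exact test). Rgs16 fell further in rods than in progenitors, by 1.69 and 1.35 in MEIS and control libraries (adjusted exact p 0.0121 and 0.0533). Btg2 rose in progenitors relative to neurogenic cells by 1.66 and 1.39 in MEIS and control libraries (adjusted exact p 0.0152 and 0.0533). In controls no adjusted p was under 0.05: 6 of the 14 control tests had the smallest p that 4 against 4 libraries can give, 0.0286, and 8 had a larger one.

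**Figure D4:**
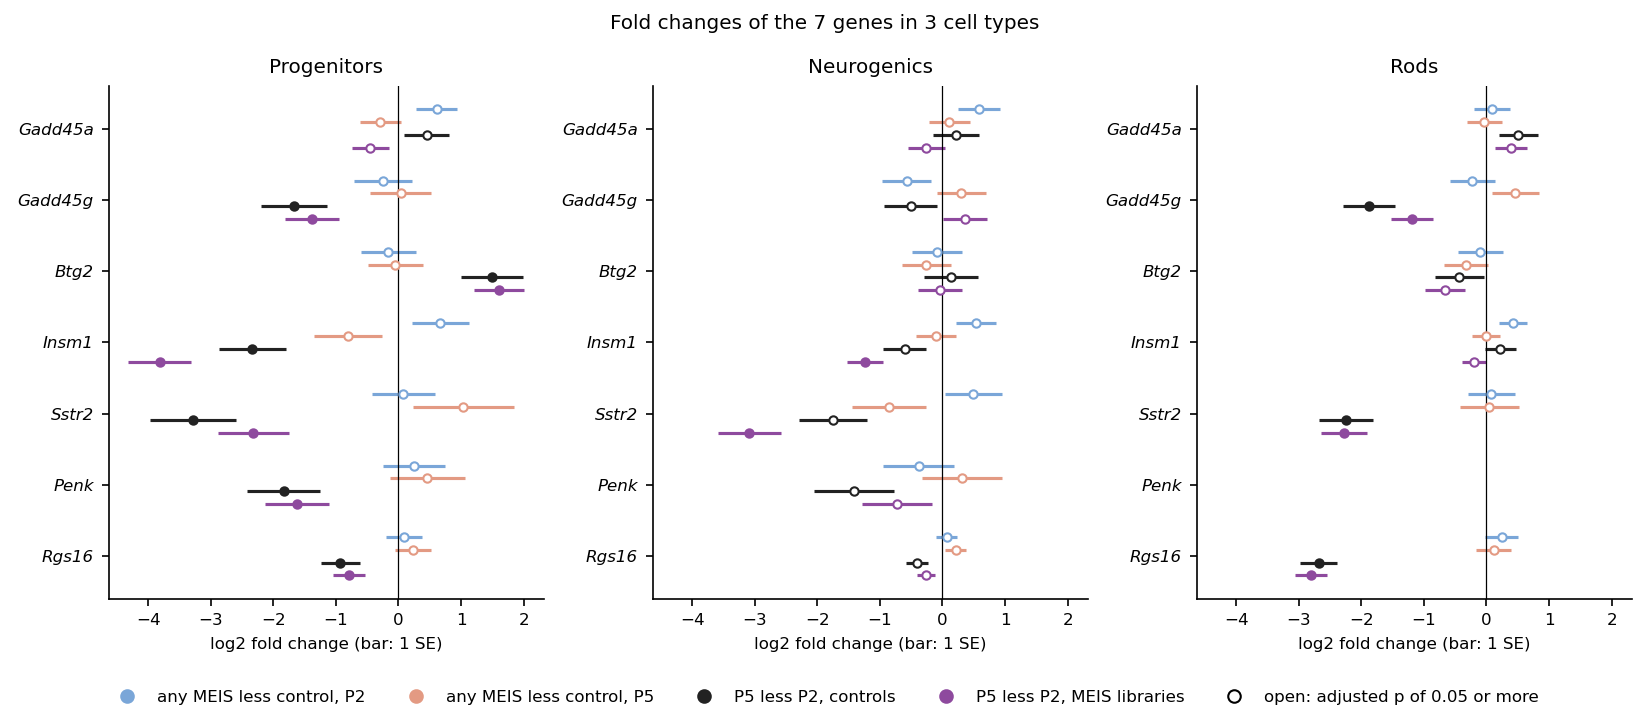
Log2 fold change ± SE of the 7 genes from edgeR, for P5 against P2 in controls and in MEIS libraries, and for any MEIS against control at each age, in progenitors, neurogenic cells and rods, with filled points for calls at an adjusted p under 0.05. Insm1, Sstr2, Gadd45g, Penk and Rgs16 are filled below 0 and Btg2 above 0 in progenitors between ages, and no point is filled for MEIS against control.

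Btg2 was set beside 10 immediate early genes, Fos, Fosb, Jun, Junb, Egr1, Atf3, Ier2, Nr4a1, Dusp1 and Klf4, a list added after values were seen. These genes are induced within minutes by growth factors and depolarisation. In control progenitors, where 17.5% of all genes were called, all 10 rose with age, with a median log2 change of 2.78 and a summed level of 960 ± 472 CPM at P2 and 5712 ± 2100 CPM at P5 (SD, n = 4). In control neurogenic cells 9 of 10 rose beside 9.27% of all genes called, from a sum of 472 ± 96.2 CPM to 2366 ± 918 CPM, while Btg2 there was not called (0.13 ± 0.43, SE, edgeR adjusted p 0.920).

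Within an age, Btg2 was compared with the immediate early sum across the 10 libraries. In progenitors at P2 Pearson's r of the log2 values was 0.90 (permutation p 0.00256, adjusted p 0.0102 over 4 relations) and Spearman's rho 0.75 (permutation p 0.0163). Without the 2 libraries farthest from the median r was 0.53, so the P2 relation rests in part on those libraries. P2 MEIS2 replicate 2, the shallow library, was highest in both, at 535 CPM of Btg2 and 3240 CPM of the sum, and P2 control 4 was next, at 335 and 1642 CPM. At P5 r was 0.68 (permutation p 0.0227, adjusted p 0.0303), rho 0.62 (permutation p 0.0584) and r without the 2 farthest libraries 0.56. At P5 MEIS1 1, MEIS2 1 and control 1 had the highest sums, 8409 to 8810 CPM, with 753 to 930 CPM of Btg2, and they are 3 of the 4 libraries numbered 1, which had the highest mitochondrial percentages (6.93% to 10.6%). The remaining library numbered 1, P5 combination 1, had 8.27% mitochondrial UMIs but the lowest sum at P5, 3813 CPM, with 542 CPM of Btg2. Over the other 6 libraries r was 0.51 (exact permutation p 0.331) and rho 0.31 (exact permutation p 0.564), a number of libraries too small to tell a weaker relation from the same one. In neurogenic cells r was 0.69 at P2 (permutation p 0.0222, adjusted p 0.0303, rho 0.61, permutation p 0.0689), falling to 0.29 without the 2 farthest libraries. At P5 it was 0.17 (permutation p 0.643, adjusted p 0.643, rho 0.32, permutation p 0.366) and 0.12 without the 2 farthest libraries, and over the 6 libraries not numbered 1 it was 0.025 (exact permutation p 0.914, rho 0.20, exact permutation p 0.714).

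**Figure D5:**
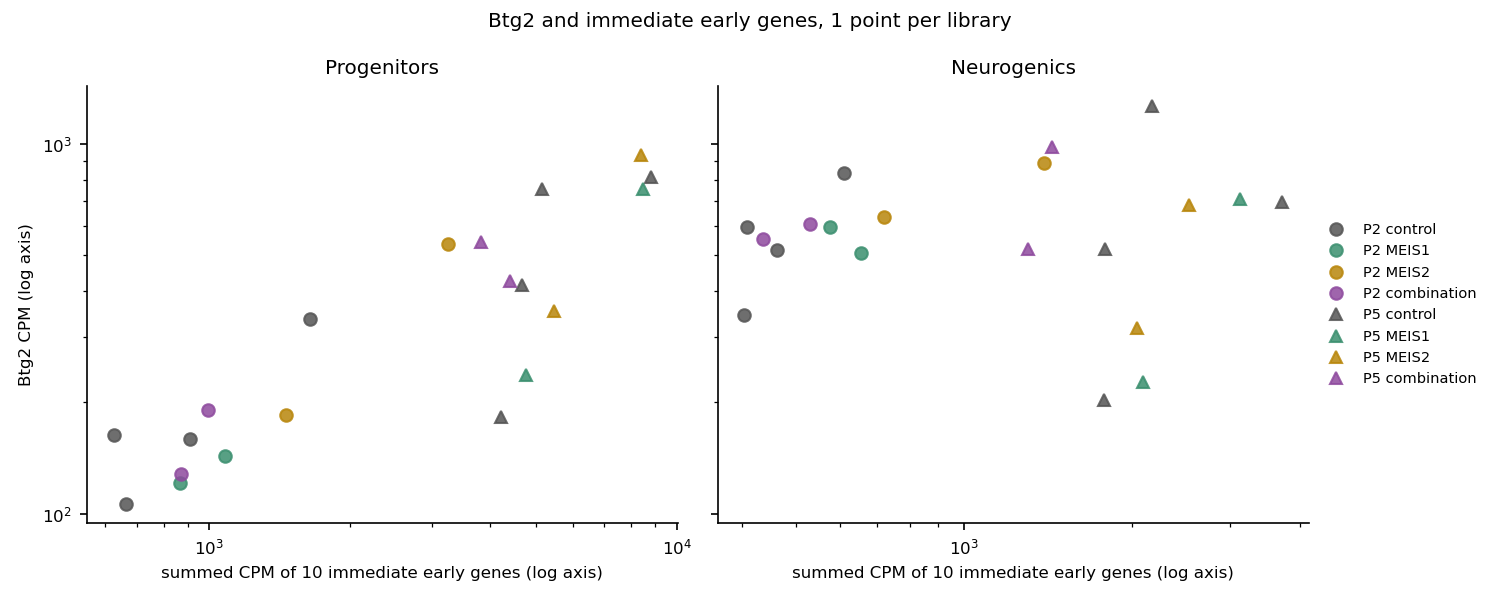
Btg2 against the summed level of 10 immediate early genes in progenitors and neurogenic cells, both in CPM on log axes, 1 point per library, coloured by plasmid group, with circles for P2 and triangles for P5. In progenitors the P5 libraries lie to the upper right of most P2 libraries, and P2 MEIS2 replicate 2, at 535 CPM of Btg2, lies apart from the other P2 libraries.

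No difference between MEIS and control libraries was called for any of the 7 genes. With the 6 MEIS libraries of an age against its 4 controls, edgeR called 0 of 58 tests over progenitors, neurogenic cells, rods, amacrine cells and, at P5, bipolar cells, 2 had an unadjusted p under 0.05, and DESeq2 called 0. The groups overlapped in all 58. The percentage of all genes called in these comparisons was 0.0135% in progenitors at P2 and 0.0202% at P5, 0% and 0.00728% in neurogenic cells, 0% and 0% in rods and in amacrine cells, and 0.00678% in bipolar cells at P5. A count of 0 among 7 genes therefore does not set them apart from other genes, and it does not show that they were unaffected.

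At P2 the means of Gadd45a and Insm1 were higher in MEIS libraries without a call. Insm1 in progenitors had a lowest, median and highest MEIS library of 52.6, 79.6 and 172 CPM beside controls of 72.7, 36.5, 42.9 and 41.5 CPM, so P2 control 1 lay among the MEIS libraries. Its log2 difference was 0.67 ± 0.46 (SE, edgeR adjusted p 0.685, two-sided exact permutation p 0.0286, the lowest of 58, adjusted to 0.552). Gadd45a in progenitors had 26.1, 37.9 and 63.3 CPM beside controls of 30.4, 14.2, 27 and 22.4 CPM (0.61 ± 0.33, SE, edgeR adjusted p 0.596). In neurogenic cells Gadd45a differed by 0.59 ± 0.34 and Insm1 by 0.54 ± 0.32 (SE, edgeR adjusted p 0.559 and 0.568), with overlapping libraries in both. For Btg2, Rgs16 and Penk in progenitors the log2 differences were -0.16 ± 0.44, 0.09 ± 0.28 and 0.25 ± 0.50 at P2 and -0.05 ± 0.44, 0.23 ± 0.29 and 0.46 ± 0.60 at P5 (SE). Those of Sstr2 were 0.08 ± 0.50 and 1.04 ± 0.80 (SE).

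Gadd45g, which stood clear of all other types in neurogenic cells of the P2 controls, had 56.3, 219 and 278 CPM (lowest, median and highest) in MEIS neurogenic cells at P2 and 165, 198 and 390 CPM at P5. The controls lay at 182 to 337 CPM and 103 to 375 CPM, so the groups overlapped at both ages. The log2 differences were -0.57 ± 0.39 and 0.30 ± 0.39 (SE, edgeR adjusted p 0.635 and 1.00). The lowest of the P2 values, 56.3 CPM, was that of the shallow P2 MEIS2 replicate 2, which was also lowest for Gadd45g in progenitors (10.8 CPM) and rods (15.6 CPM). In bipolar cells at P5 Gadd45g was at 33.5, 50.3, 35.4, 57.8, 96.7 and 57.1 CPM in MEIS libraries and at 34.8, 40.6, 26.6 and 22.5 CPM in controls. This was 1 of the 2 tests with an unadjusted p under 0.05 (0.74 ± 0.24, SE, edgeR adjusted p 1.00), and the ranges overlapped. The other was Sstr2 in amacrine cells at P2, with a lowest and highest library of 1.57 and 11.2 CPM in MEIS libraries and 3.14 and 10.8 CPM in controls (-1.02 ± 0.47, SE, edgeR adjusted p 0.988).

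Single plasmids gave the same count. In progenitors and neurogenic cells edgeR called 0 of 84 tests of MEIS1, MEIS2 or the combination against control, 2 had an unadjusted p under 0.05, and DESeq2 called 0. The 2 were Sstr2 in progenitors with MEIS1 at P5 (2.01 ± 0.86) and Sstr2 in neurogenic cells with MEIS2 at P5 (-2.49 ± 1.03, SE, edgeR adjusted p 1.00 for both), where the controls held 10 and 27 Sstr2 UMIs in all. In progenitors the percentages of all genes called were 0.00673% for MEIS1, 0.0404% for MEIS2 and 0.0135% for the combination at P2, and 0.00673%, 0.00673% and 0.0135% at P5. The neurogenic values were 0.00728%, 0% and 0% at P2 and 0.00728%, 0% and 0.0218% at P5. With 0% called for MEIS2, the plasmid gene Meis2 itself went uncalled in neurogenic cells. Its level there was 1871 and 1755 CPM in the P2 MEIS2 libraries and 251 to 573 CPM in the P2 controls. At P5 it was 751 and 675 CPM beside 96.7 to 312 CPM in controls, so these tests can miss differences of that size. The P5 effect of any MEIS less its P2 effect was called in 0 of 26 tests by edgeR, with 0% of all genes called in each of the 4 types, 0 with an unadjusted p under 0.05 and 0 by DESeq2. Its largest values in progenitors were -1.48 ± 0.71 for Insm1 and 0.96 ± 0.93 for Sstr2 (SE, edgeR adjusted p 1.00 for both).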

How the data were processed

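The authors deposited UMI counts of every gene in every cell without normalization: all values are whole, and in all 79009 cells they sum to the UMIs that the authors list for the cell. The deposited description of cells gives the authors' cell types, the library of each cell and mitochondrial UMIs as a percent. Cell Ranger, Seurat 5 and mm10 are named per the submitters' processing notes, and versions and filters otherwise are not given in the sources used here. Every deposited cell has a GFP UMI and at least 501 UMIs.

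Counts were summed per library and type (at least 20 cells), so libraries and not cells are the replicates. Genes passing filterByExpr were fitted in edgeR 4.0.16 (R 4.3.3) with TMM factors and 1 mean for each of the 8 groups, by the two-sided quasi-likelihood test with Benjamini-Hochberg adjustment over all genes of a contrast. CPM use the plain UMI total of the sum. The members and lists were chosen with earlier results of these data known. The rule was to name all 7 members and the called genes of each list; in the text, members that were not called are in places given only by count, and called genes of the longest list in part, and the genes most like a member are those with the highest r. A few values of other genes are not reported here. The immediate early list and the genes named with Btg2 in it were chosen after values were seen. Co-detection pairs named are examples chosen after their values were seen.

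Groups were taken from titles. Doublets were called with Scrublet (scanpy 1.11.5, expected 6%) and kept; the caller marked under 0.5% of cells in 7 of 20 libraries (0.0159% to 0.463%), among them 0.0159% of the 6292 cells of P5 control 1 and 0.0212% of the 4712 of P2 control 2, so it cannot be relied on there. The alternatives tried used DESeq2 1.42.0, plain totals in place of TMM factors, only the groups compared, a minimum of 50 cells, all genes with a UMI, thinned cells, no doublets, a replicate block, groups from cell names and each library left out. The fitting scripts were tested on simulated data with 100 genes changed 2-fold and 100 changed 4-fold. Between control ages 26% of the 2-fold changes were called in progenitors and 47% in neurogenic cells. For any MEIS at P5 these percentages were 43% and 56%. Of the 4-fold changes 75% and 79% were called between ages, and 75% and 91% for any MEIS. A gene that was not called can therefore have changed. These percentages hold for that setting only. The share of all genes called affects how strict the adjustment is, and it was not matched to the deposited data. There 17.5% of all genes tested in progenitors were called between control ages and 0.0202% for any MEIS at P5. How often changes of these sizes are called in the deposited data was not tested. RefSeq promoters and GENCODE vM21 positions were matched by symbol.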

Additional observations from a re-analysis of the deposited data

Results flagged for a closer look

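Dixon's test was run on 70 groups of 4 control libraries, 7 genes in 5 types at each age. The types included cones at P2 only and bipolar cells at P5 only. The highest or lowest library stood far from the other 3 in 8 groups, or 11.4%. The test flags about 1 in 20 groups of normal values, but it was run on CPM without a log, which need not be normal. Each flagged library was the highest of its group, and the groups share libraries. The 11.4% is therefore not a measure of excess over that rate. Btg2 in amacrine cells was at 336 CPM in P2 control 4 (others 95.3 to 122) and at 815 CPM in P5 control 3 (others 47.4 to 140). In the amacrine cells of these 2 libraries the sum of 7 neurogenic markers was 505 CPM (other P2 controls 203 to 262) and 436 CPM (other P5 controls 60.1 to 104), and the sum of 5 amacrine markers was 738 CPM (others 745 to 1406) and 576 CPM (others 739 to 947). P5 control 3 also stood out for Rgs16 in amacrine cells, at 68.0 CPM (others 7.06 to 14.6), and for Penk in progenitors, at 3.30 CPM (others 0.617 to 0.651). P2 control 3 stood out for Gadd45g in cones, at 47.5 CPM (others 18.4 to 21.7), for Penk in cones, at 6.79 CPM (others 0), which is 1 UMI in 50 cones, and for Rgs16 in rods, at 28.2 CPM (others 17.1 to 18.9). Rgs16 in progenitors was at 34.3 CPM in P5 control 1 (others 13.5 to 16.7).

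The change from P2 to P5 differed between cell types at an adjusted p under 0.05 in 9 of 28 exact permutation tests, 14 of them in controls and 14 in MEIS libraries, and all 9 were in MEIS libraries. The values are the P5 less P2 change of the log2 difference between types, with 6 libraries per age. For progenitors less neurogenic cells they were -1.63 for Gadd45g, 1.66 for Btg2, -2.45 for Insm1 and -1.06 for Penk (adjusted exact p 0.0121, 0.0152, 0.0121 and 0.0121). For progenitors less rods they were -0.98 for Gadd45a, 2.14 for Btg2, -3.59 for Insm1, -1.47 for Penk and 1.69 for Rgs16 (adjusted exact p 0.0152, 0.0152, 0.0121, 0.0337 and 0.0121). In controls the corresponding differences had the same sign, and 6 of them had an adjusted exact p of 0.0533, from a raw p of 0.0286, the smallest that 4 against 4 libraries allow. For Penk the test cannot tell whether the types changed differently. Rods of the MEIS libraries held 5 Penk UMIs at P2 and 7 at P5, too few to show a fall. Neurogenic cells, at 1.71 and 0.846 CPM on average, lay near the 1 CPM added before the log.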

How the results depend on the processing

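Of 674 log2 fold changes recomputed under alternatives, 605 kept their direction and their side of the threshold, 55 lost a call, 12 gained one and 2 reversed. The reversed values were those of Gadd45a in control progenitors, -0.076 without P5 control 1 (-0.076 to 0.64 with each library left out) and -0.080 without the 4 libraries numbered 1 at P5, an alternative chosen after seeing the data. In control progenitors 3 genes were called between ages when only the groups compared were fitted, and 2 to 5 with each library left out. In control neurogenic cells 1 gene, Sstr2, was called under DESeq2, without a filter on low counts, with groups from cell names and without doublets, and 0 to 1 with each library left out. Between MEIS libraries of the 2 ages 1 gene was called in amacrine cells without the libraries numbered 1 at P5 and 1 in neurogenic cells when thinned to 2000 UMIs. With each library left out the counts of that comparison were 1 to 2 in neurogenic cells, 1 to 3 in rods and 4 to 6 in progenitors. The labels do not pair same-numbered libraries, and correlations of their deviations ran from -0.23 to 0.60 over pairs of groups. With a replicate block, 1 gene (Sstr2) was called in control neurogenic cells, and the block kept 6 in control progenitors. All 15 counts of calls for MEIS against control stayed at 0 in 356 recomputed values. Levels moved by less than the spread between libraries in 138 of 140 values, and shares moved in 27 of 42 when thinned to 1000 UMIs. Depth limits Sstr2 and Penk most: the P5 control progenitors held 10 and 48 UMIs of them. The cause of these differences was not tested.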

Other observations

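Some genes related to the 7 were also called between ages in other types of the controls. In rods, where 13.2% of all genes were called, 3 of 13 RGS and G alpha genes, 1 of 6 INSM1 partner genes and 1 of 10 growth arrest genes tested were called. In neurogenic cells (9.27% of all genes called) the counts were 2 of 13, 1 of 6 and 0 of 10, and in amacrine cells (0.397%) 0 of 12, 1 of 6 and 0 of 9. In control rods Rgs3 fell by 1.90 ± 0.33 and Rgs9, whose product ends the light response, rose by 2.47 ± 0.50 on the log2 scale, while Gnai2 fell by 1.26 ± 0.31 (SE, edgeR adjusted p 0.00162, 0.00372 and 0.0114). Rcor2, which fell in progenitors, also fell in rods, by 0.99 ± 0.21 (SE, edgeR adjusted p 0.00586). Insm2, the paralogue of Insm1, fell in control neurogenic cells by 1.76 ± 0.44 and in control amacrine cells by 2.46 ± 0.45 (SE, edgeR adjusted p 0.0148 and 0.0221), while Insm1 was called in neither type of the controls and fell in neurogenic cells of the MEIS libraries. Gadd45b, which rose in control progenitors, rose by 1.40 ± 0.32 in control rods (SE, edgeR adjusted p 0.00776). In control rods 9 of 13 proneural and Notch ligand genes tested fell and 0 rose, with a median log2 change of -1.82 beside 0.00 for all genes tested.

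In amacrine cells P5 combination 1 and P5 control 3 stood apart in their markers. In P5 combination 1 the sum of 7 neurogenic markers was 419 CPM and in P5 control 3 it was 436 CPM, against 41.1 to 154 CPM in the other P5 libraries. Both also had the lowest sums of 5 amacrine markers at P5, 364 and 576 CPM against 628 to 947 CPM. The same 2 libraries had the highest amacrine levels at P5 of Gadd45a, 385 and 452 CPM, of Btg2, 440 and 815 CPM, and of Rgs16, 91.6 and 68.0 CPM.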
